A study of Mus musculus with 26 samples.

Results

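Glucose-responsive transcription in fat runs through ChREBP, its paralog MondoA and their common partner Mlx. These proteins were followed here in subcutaneous white adipose tissue of mice that lacked ChREBP. With them were read the Mxd, Mnt and Max proteins of the same network, its targets Txnip and Arrdc4, and the related arrestin Arrdc3. All probes whose gene name on the array was Mlxipl (ChREBP), Mlxip (MondoA), Mlx, Mxd1, Mxd4, Mnt, Max, Txnip, Arrdc4 or Arrdc3 were taken. These 10 genes, out of 37074 gene names, had 20 of the 56605 different probes. The tissue was the inguinal depot of C57BL6/J male mice, and each of the 26 arrays held the RNA of 1 sample. Total ChREBP KO mice (n = 7) were Mlxipl-null and lacked both isoforms, ChREBPα and ChREBPβ. ChREBPβ KO mice (n = 5) lacked only the shorter isoform after CRISPR/Cas9 removal of exon 1b. Each line had its own WT group (n = 7 in both). The paper describes WT littermates for the ChREBPβ line and does not state this for the total line. All 26 mice, WT included, were fasted for 24 hours and then refed for 18 hours with food and water that held 20% glucose. Both deletions were present in every cell of the animal, so a change in fat need not start in fat.

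As background, ChREBP and MondoA are basic helix-loop-helix leucine zipper proteins that move to the nucleus when hexose phosphates build up in the cell. Each binds DNA as a heterodimer with Mlx at the carbohydrate response element, ChoRE, which is built from a pair of E-box-like half-sites. Mlx can also pair with Mxd1, Mxd4 and Mnt, which repress transcription and otherwise pair with Max, the partner of Myc. Txnip and Arrdc4 are alpha-arrestins that slow glucose uptake and are direct targets of both ChREBP and MondoA. Arrdc3, another alpha-arrestin, limits β-adrenergic signalling. The ChREBPβ promoter is itself a ChREBP target, which makes the short isoform a readout of glucose-driven ChREBP activity in fat.

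The groups also differed in the mixture of cells they held. The mean log2 intensity of 13 adipocyte markers was between 14.91 and 15.91 on every array. It was lower in WT mice of the total line (14.91 to 15.41) than in total ChREBP KO mice (15.75 to 15.91). Of the 13 markers 11 were called higher in KO, against 25.8% of all genes. The mean of 15 lymphocyte markers was highest in WT mice of the total line, at 11.08 to 12.79. It lay at 8.05 to 11.42 in KO mice of that line. In the ChREBPβ line, WT mice had 7.31 to 8.33 and KO mice 7.34 to 8.99. All 15 were called lower in total ChREBP KO, against 20.1% of all genes, and 0 of 15 were called in ChREBPβ KO. Skeletal muscle markers ran from 6.14 to 12.85 over all arrays, and from 6.31 to 12.85 within total ChREBP KO alone. There 3 of 13 were called higher, near the 25.8% of all genes, but all 13 had a positive change, with a median of 2.61. The group median of the marker level was 10.77 in total ChREBP KO and 6.31 in WT mice of that line (6.14 to 11.98). Macrophage markers ran from 10.61 to 12.8 over all arrays, with 5 of 12 called lower in total ChREBP KO, against 20.1% of all genes. Markers of beige and brown adipocytes were at 11.4 to 13.56 in WT mice of the total line and at 9.75 to 11.54 in the other 3 groups. In tissue RNA, fewer cells of a type and less RNA per cell cannot be told apart.

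Start-site sequences are shown for 4 members: the gene whose product was lost, the targets Txnip and Arrdc4, and Mxd4, which rose in total ChREBP KO. They are the 250 bases before the start in RefSeq (GRCm38.p6), 5′ to 3′ on the strand of the gene. Capitals mark CACGTG, the E-box read alike on both strands, and in Txnip a direct pair of half-sites (CACGNG, 5 bases, CACGNG). That second pattern was chosen after the Txnip sequence had been seen. Each printed sequence holds a marked pattern, although Txnip passed in no comparison. Arrdc3, which rose most in total ChREBP KO and had neither pattern at any of its starts, is not printed, nor is Max. Whether a pattern goes with a change in level was not tested.
Mlxipl, upstream start, chr5:135089640-135089889 (+): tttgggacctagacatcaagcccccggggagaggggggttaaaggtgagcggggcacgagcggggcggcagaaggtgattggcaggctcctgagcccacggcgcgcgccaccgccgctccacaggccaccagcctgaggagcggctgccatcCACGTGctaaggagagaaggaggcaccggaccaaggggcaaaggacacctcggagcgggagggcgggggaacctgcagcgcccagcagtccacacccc
Txnip, chr3:96557707-96557956 (+): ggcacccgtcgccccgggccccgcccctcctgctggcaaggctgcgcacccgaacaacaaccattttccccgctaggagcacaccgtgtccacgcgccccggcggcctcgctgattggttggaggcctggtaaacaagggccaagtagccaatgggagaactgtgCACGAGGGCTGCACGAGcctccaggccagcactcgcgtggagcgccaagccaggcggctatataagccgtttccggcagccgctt
Arrdc4, chr7:68749239-68749488 (-): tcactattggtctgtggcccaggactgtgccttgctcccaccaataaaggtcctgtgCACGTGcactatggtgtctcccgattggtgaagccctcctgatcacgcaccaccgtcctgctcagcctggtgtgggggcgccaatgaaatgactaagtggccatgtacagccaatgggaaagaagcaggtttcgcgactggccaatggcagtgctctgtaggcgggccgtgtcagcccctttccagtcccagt
Mxd4, chr5:34187711-34187960 (-): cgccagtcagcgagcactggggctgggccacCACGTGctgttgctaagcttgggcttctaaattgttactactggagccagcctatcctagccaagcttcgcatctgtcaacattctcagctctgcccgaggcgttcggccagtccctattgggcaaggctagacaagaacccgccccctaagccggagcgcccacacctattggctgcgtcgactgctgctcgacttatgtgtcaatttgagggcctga
RefSeq held 13 start sites for the 10 members, and each was searched over 300 bases, 250 before and 50 after the start. CACGTG was found near the start of 6 members, Mlxipl, Mlx, Mxd4, Mnt, Max and Arrdc4, against 8.09% of 27025 genes searched in the same way. Its place was -98 to -93 in Mlxipl, -40 to -35 in Mlx, -219 to -214 in Mxd4, -123 to -118 in Mnt, -3 to 3 in Max and -193 to -188 in Arrdc4, counted from the start. The other Mlxipl start, 17001 bases downstream, had no CACGTG. The direct half-sites lay at -85 to -69 in Txnip, and 0.0555% of all genes held such a pair. The ChoRE consensus itself matched 0 of the 10 members and 0.137% of all genes, which says only that these letters are not in these windows. Which Mlxipl start belongs to which isoform was not read from this table.

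Loss of both isoforms was examined first, against WT mice of the same line, to ask whether the paralog, the partners and the targets of ChREBP change with it. The change of MondoA was a small fall, and Mlx and Txnip did not pass the test. The members that moved most after Mlxipl itself were Arrdc3, Mxd4 and Arrdc4, which rose, and Max, which fell. In limma, with the Benjamini-Hochberg adjustment over all 38832 tested probes and each gene read at its brightest probe, 6 of 10 members passed an adjusted p of 0.05, against 45.8% of all 25407 gene names. Of these, 3 were higher in KO (25.8% of all genes) and 3 were lower (20.1%). KO and WT arrays did not overlap for 5 members, Mlxipl, Mxd4, Max, Arrdc4 and Arrdc3, against 14.8% of all genes. The median log2 fold change was -0.14 over the 10 members, -0.11 without Mlxipl, and 0.05 over all genes.

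**Figure D1:**
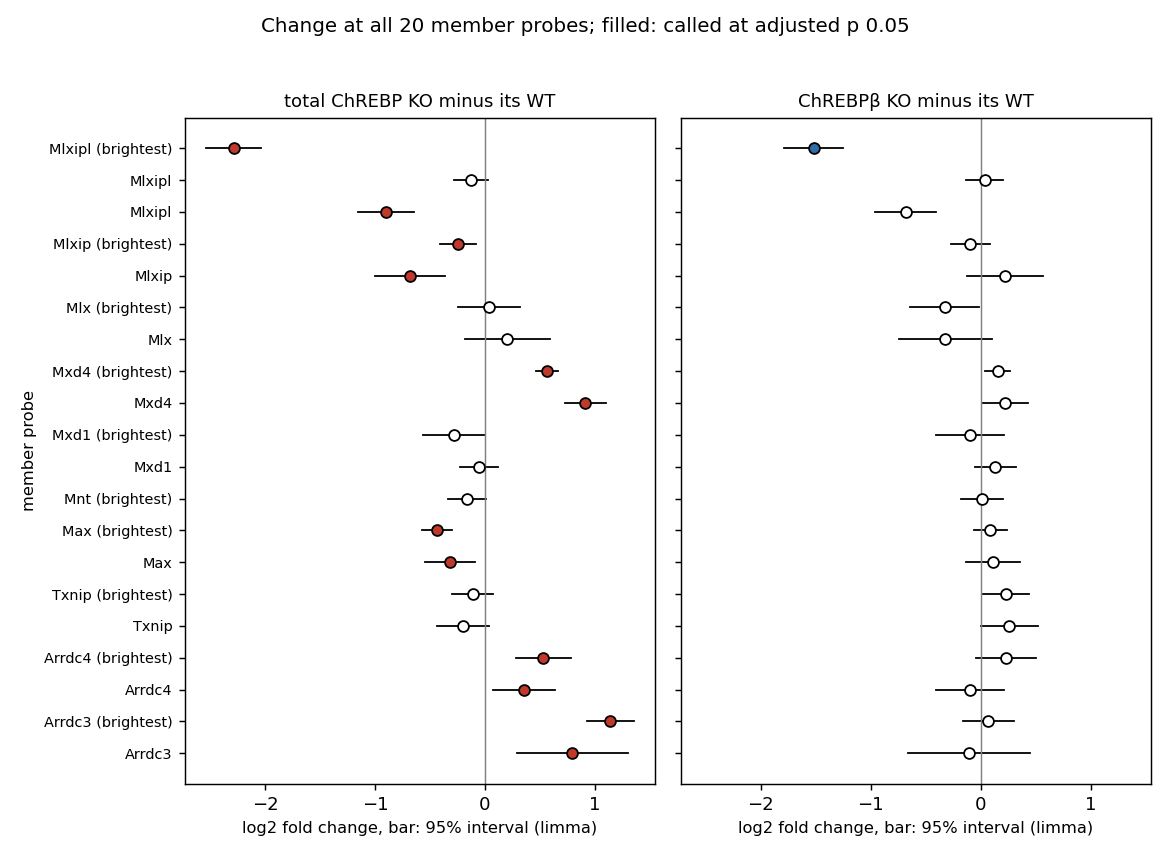
Log2 fold changes of all 20 member probes in total ChREBP KO and in ChREBPβ KO against WT mice of their own line, with 95% confidence intervals from limma. Filled points had an adjusted p under 0.05. In total ChREBP KO 12 of 20 probes were called, in ChREBPβ KO only 1, a probe of Mlxipl.

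Mlxipl was read first, because it checks the labels. At its brightest probe (A_55_P2119957, mm9 chromosome 5, 135613705 to 135613764), log2 intensity in WT mice of the total line was 15.77 at the lowest, 15.99 at the median and 16.53 at the highest. In total ChREBP KO it was 13.63, 13.76 and 13.95. The groups lay far apart, with means of 16.07 ± 0.25 (SD, n = 7) and 13.78 ± 0.14 (SD, n = 7). The log2 fold change was -2.29 (SE 0.12, adjusted p = 1.86e-13 in limma), which left 20.5% of the WT intensity, and the fall was seen in 4 of 4 wash batches (-2.68 to -1.96). All 7 KO arrays were still well above background at this probe.

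In the ChREBPβ line the same probe gave 15.24, 15.63 and 16.18 as lowest, median and highest value in WT mice. The 5 ChREBPβ KO arrays gave 14.35, 13.93, 14.05, 14.36 and 14.10. These groups did not overlap either. The change was -1.52 (SE 0.13, adjusted p = 6.20e-07 in limma), to 34.9% of the WT intensity, and held in 3 of 3 wash batches (-1.79 to -1.39). With slide as a fixed block it was -1.54 and did not pass (adjusted p = 0.27). The fall after loss of exon 1b alone was smaller than that after loss of both isoforms, by 0.77 (SE 0.18, adjusted p = 0.00339 for the difference). ChREBPβ KO and total ChREBP KO arrays overlapped, at 13.93 to 14.36 and 13.63 to 13.95. Without the 10 arrays whose muscle markers were above 10, a limit chosen after seeing the data, the difference was 0.69 and missed the threshold (adjusted p = 0.0924). That fit kept 3 total ChREBP KO arrays and 5 WT arrays of that line, with 4 KO and 4 WT arrays of the ChREBPβ line.

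The other Mlxipl probes need their letters beside them. From each 60-base probe, 30 bases are shown, 5′ to 3′ as on the array, to tell the 3 probes apart, with a stretch of 20 bases that occurs in 7 probes of other genes in capitals.
A_55_P2119957, bases 16 to 45: tgtagatgtgtgtgtgcgtatgtggatttt
A_55_P2728555, bases 28 to 57: ctctaCTACACAGAGAAACCCTGTCtcaaa
A_55_P2045158, bases 16 to 45: gaactgggcatggtgatgcacacctttaat
Probe A_55_P2728555 spanned chromosome 5 from 135598483 to 135599113 and shared 20-base stretches with 9 probes of 9 other gene names, whose median log2 fold change was -0.02 in total ChREBP KO and 0.00 in ChREBPβ KO. The remaining 19 member probes shared no exact 20-base stretch with a probe of another gene. Near matches and repeats in the genome were not searched, so binding to other transcripts was not tested. Log2 intensity of A_55_P2728555 was 10.97, 11.43 and 11.996 (lowest, median, highest) in WT mice of the total line and 10.26, 10.58 and 10.80 in total ChREBP KO. The groups did not overlap, and the change was -0.90 (SE 0.12, adjusted p = 2.25e-06 in limma). In the ChREBPβ line it was 10.68, 10.996 and 11.39 in WT mice and 10.44, 10.24, 10.50, 10.24 and 10.45 in KO. No KO array reached the lowest WT array, yet the change of -0.68 (SE 0.14) missed the threshold (adjusted p = 0.0540 in limma). Probe A_55_P2045158 (135614195 to 135614252) had log2 intensities of 11.41 to 11.90 in all 4 groups. Its change was -0.13 (adjusted p = 0.158 in limma) in total ChREBP KO and 0.04 (adjusted p = 0.970) in ChREBPβ KO, so the fall of Mlxipl was seen at 2 of its 3 probes. Averaged over all 3, the change in total ChREBP KO was -1.11.

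**Figure D2:**
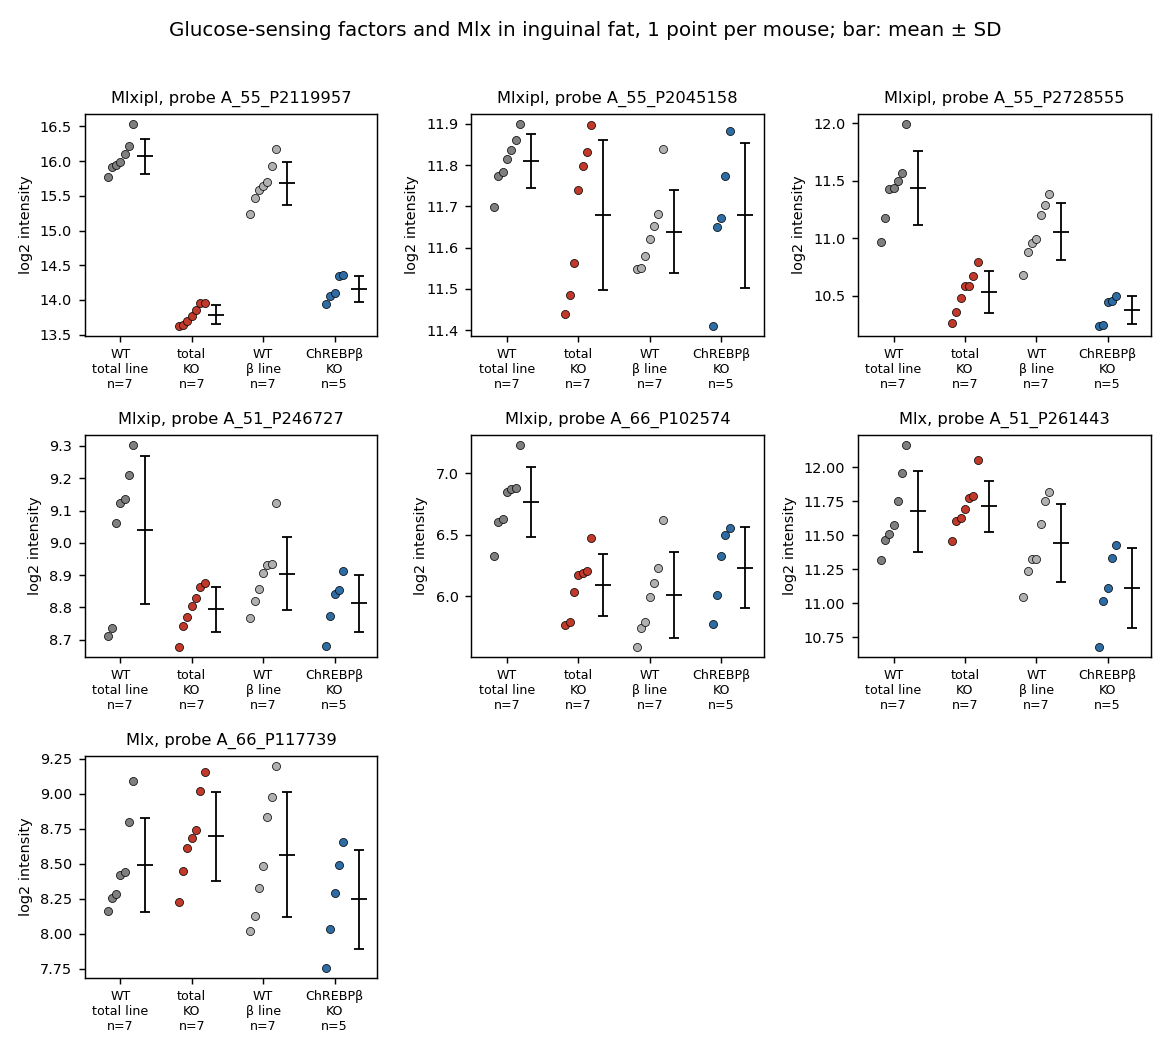
Log2 intensity of every array at the probes of Mlxipl (ChREBP), Mlxip (MondoA) and Mlx in the 4 groups, with mean ± SD beside the points. At Mlxipl probe A_55_P2119957 the KO arrays of both lines lie below all WT arrays, whereas KO and WT of each line overlap at both probes of Mlxip and of Mlx.

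MondoA, the paralog of ChREBP, was lower in total ChREBP KO at both of its probes, without a gap between the groups. At the brightest Mlxip probe (A_51_P246727, chromosome 5, 123907398 to 123907457), log2 intensity was 8.71, 9.12 and 9.30 (lowest, median, highest) in WT mice and 8.68, 8.80 and 8.88 in KO. The groups overlapped, with every KO array below the WT median. The change was -0.25 (SE 0.08, adjusted p = 0.0121 in limma), and KO was lower in 3 of 4 wash batches (-0.4 to 0.04). With the lymphocyte and muscle marker levels of each array as covariates the change was -0.12 and no longer passed (adjusted p = 0.558), nor did it with slide as a fixed block (-0.35, adjusted p = 0.0780). A dimmer probe, A_66_P102574 (123896686 to 123896745), went from 6.33, 6.85 and 7.23 in WT mice to 5.76, 6.17 and 6.48 in KO. This was a fall by 0.68 (SE 0.16, adjusted p = 0.000868 in limma), in 4 of 4 wash batches (-1.13 to -0.15). In ChREBPβ KO neither probe passed, at -0.09 (adjusted p = 0.887) and 0.22 (adjusted p = 0.837).

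Mlx, the obligate partner of both glucose sensors, did not pass in either line. At its brightest probe (A_51_P261443, chromosome 11, 100952426 to 100952485), log2 intensity was 11.32, 11.57 and 12.17 in WT mice of the total line and 11.46, 11.70 and 12.05 in KO. The KO range lay inside the WT range, and the difference was 0.04 (95% confidence interval -0.25 to 0.32, adjusted p = 0.851 in limma). In the ChREBPβ line WT mice had 11.04, 11.33 and 11.82, and the 5 KO arrays had 11.43, 11.02, 11.33, 11.11 and 10.68. The difference was -0.33 (95% confidence interval -0.64 to -0.02), below 0 in 3 of 3 wash batches (-0.53 to -0.23), and missed the threshold after adjustment (adjusted p = 0.597 in limma). The other Mlx probe, A_66_P117739, gave 0.20 and -0.32 in the same comparisons, and neither passed.

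The proteins that compete for Mlx or Max moved in different directions in total ChREBP KO. Mxd4, a repressor that pairs with Max or Mlx, rose. Its brightest probe (A_52_P230650, chromosome 5, 34516836 to 34516895) had a log2 intensity of 10.77, 10.80 and 10.93 in WT mice and of 11.30, 11.39 and 11.50 in KO. The change was 0.56 (SE 0.05, adjusted p = 2.48e-09 in limma) or 1.48-fold, in 4 of 4 wash batches (0.47 to 0.65). A second probe, A_51_P148865 (34520307 to 34520366), rose by 0.91 (SE 0.09, adjusted p = 1.87e-08), with 8.57 to 9.14 in WT mice and 9.64 to 9.99 in KO. At both probes the groups did not overlap. With the lymphocyte and muscle levels as covariates the change at the brightest probe was 0.56 (adjusted p = 1.18e-05 in limma). That fit had little overlap of lymphocyte level between KO (8.05 to 11.42) and WT (11.08 to 12.79), and held no adipocyte level.

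Max, the common dimer partner of Myc, Mxd and Mnt, fell. At its brightest probe (A_51_P188211, chromosome 12, 78038283 to 78038342) WT mice had 12.46, 12.66 and 12.78 and total ChREBP KO mice 12.12, 12.16 and 12.31. Every KO array was below every WT array. The change was -0.44 (SE 0.07, adjusted p = 9.55e-06 in limma), to 73.8% of the WT intensity, with a fall in 4 of 4 wash batches (-0.56 to -0.34). The other probe, A_55_P2745603, changed by -0.32 (SE 0.11, adjusted p = 0.0197), and its groups overlapped.

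Mxd1, an inducible repressor of the same family, did not pass. Its brightest probe (A_51_P490795, chromosome 6, 86597190 to 86597249) had 9.06, 9.43 and 9.91 in WT mice and 8.76, 9.17 and 9.53 in KO, a difference of -0.28 (SE 0.14, adjusted p = 0.0949 in limma). It passed without WT replicate 4 (-0.35, adjusted p = 0.0351). Mnt, a repressor present in most cells, had 11.73, 12.01 and 12.21 in WT mice and 11.61, 11.90 and 12.01 in KO at its single probe (A_52_P477431, chromosome 11, 74658915 to 74658974). The difference was -0.16 (95% confidence interval -0.34 to 0.01, adjusted p = 0.116 in limma). Without WT replicate 5 it was -0.21 and passed (adjusted p = 0.0499). For both genes the 2 groups overlapped.

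**Figure D3:**
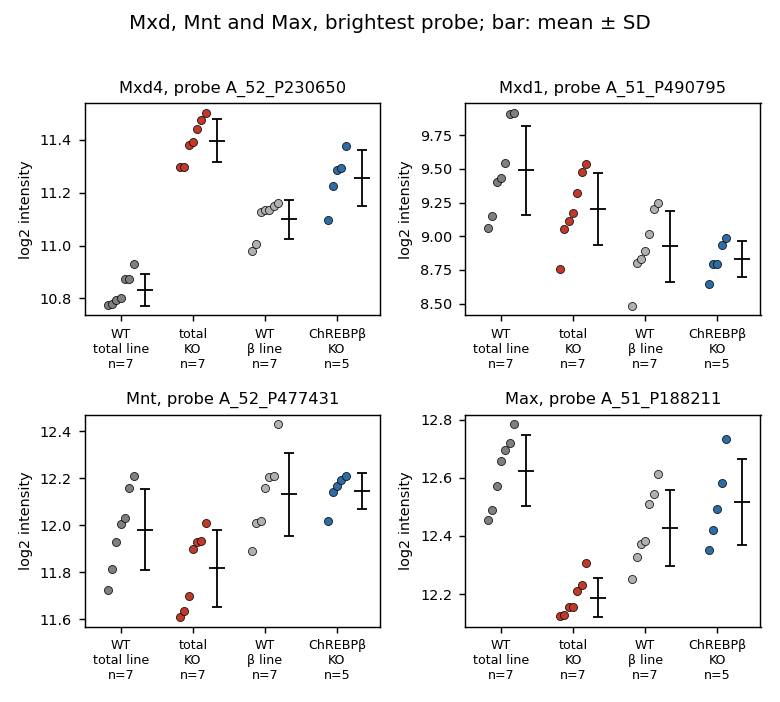
Log2 intensity of every array at the brightest probes of Mxd4, Mxd1, Mnt and Max in the 4 groups, with mean ± SD beside the points. For Mxd4 the WT arrays of the total line lie below all other arrays, and for Max the total ChREBP KO arrays lie below the WT arrays of their own line.

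Of the arrestins, the target most often used as a readout of MondoA and ChREBP activity stayed within its error. Txnip, which inhibits glucose uptake and binds thioredoxin, had a log2 intensity of 14.97, 15.10 and 15.31 in WT mice of the total line and of 14.87, 15.01 and 15.12 in KO at its brightest probe (A_66_P131361, chromosome 3, 96365340 to 96365399). The ranges overlapped. The difference was -0.11 (95% confidence interval -0.30 to 0.08, adjusted p = 0.333 in limma), below 0 in 4 of 4 wash batches but by no more than 0.2. The other probe, A_55_P2006255, gave -0.20 (95% confidence interval -0.44 to 0.04, adjusted p = 0.164). In the ChREBPβ line the WT values were 14.89, 15.21 and 15.62, and the 5 KO arrays gave 15.34, 15.18, 15.70, 15.54 and 15.65. KO was the higher group here in 3 of 3 wash batches (0.22 to 0.31), with a difference of 0.23 (95% confidence interval 0.02 to 0.44) that did not pass after adjustment (adjusted p = 0.559 in limma). The effects of both deletions on Txnip differed by 0.35 (adjusted p = 0.0715), and by 0.46 at the other probe (adjusted p = 0.0528). That difference passed in 4 of 41 alternative fits, among them without ChREBPβ KO replicate 2 (0.42, adjusted p = 0.0273) and without WT replicate 6 of the ChREBPβ line (0.41, adjusted p = 0.0229).

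Arrdc4, the alpha-arrestin most like Txnip in its regulation, was higher in total ChREBP KO. Its brightest probe (A_55_P2504175, chromosome 7, 75886496 to 75886555) had 10.41, 10.98 and 11.22 in WT mice and 11.25, 11.43 and 11.65 in KO. The groups came close but did not overlap. The change was 0.53 (SE 0.12, adjusted p = 0.000943 in limma) or 1.45-fold, in 4 of 4 wash batches (0.25 to 0.79). It was 0.37 with the lymphocyte and muscle levels as covariates and no longer passed (adjusted p = 0.194). Probe A_66_P122074 (75882043 to 75882102) rose by 0.36 (SE 0.14, adjusted p = 0.0348), with overlap. In the ChREBPβ line the brightest probe had 10.74, 10.999 and 11.58 in WT mice and 11.21, 11.31, 11.30, 11.46 and 11.03 in KO. All 5 KO values lay within the WT range, and the difference was 0.23 (95% confidence interval -0.04 to 0.51, adjusted p = 0.728).

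Arrdc3 had the largest rise of the 10 members in total ChREBP KO. At its brightest probe (A_55_P2845263, chromosome 13, 81035204 to 81035263), log2 intensity was 8.81, 9.05 and 9.28 in WT mice and 9.94, 10.20 and 10.32 in KO. The gap between the groups was larger than the range of either. The change was 1.14 (SE 0.10, adjusted p = 3.80e-09 in limma) or 2.20-fold, in 4 of 4 wash batches (0.86 to 1.42). With the lymphocyte and muscle levels as covariates it was 1.097 (adjusted p = 1.93e-05 in limma). Lymphocyte levels overlapped little between KO (8.05 to 11.42) and WT (11.08 to 12.79), and adipocyte level was not a covariate. A much dimmer probe, A_52_P75584 (81028816 to 81028875), rose by 0.79 (SE 0.25, adjusted p = 0.0100), with 5.53 to 7.13 in WT mice and 6.29 to 8.38 in KO. It was higher in KO in 3 of 4 wash batches.

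**Figure D4:**
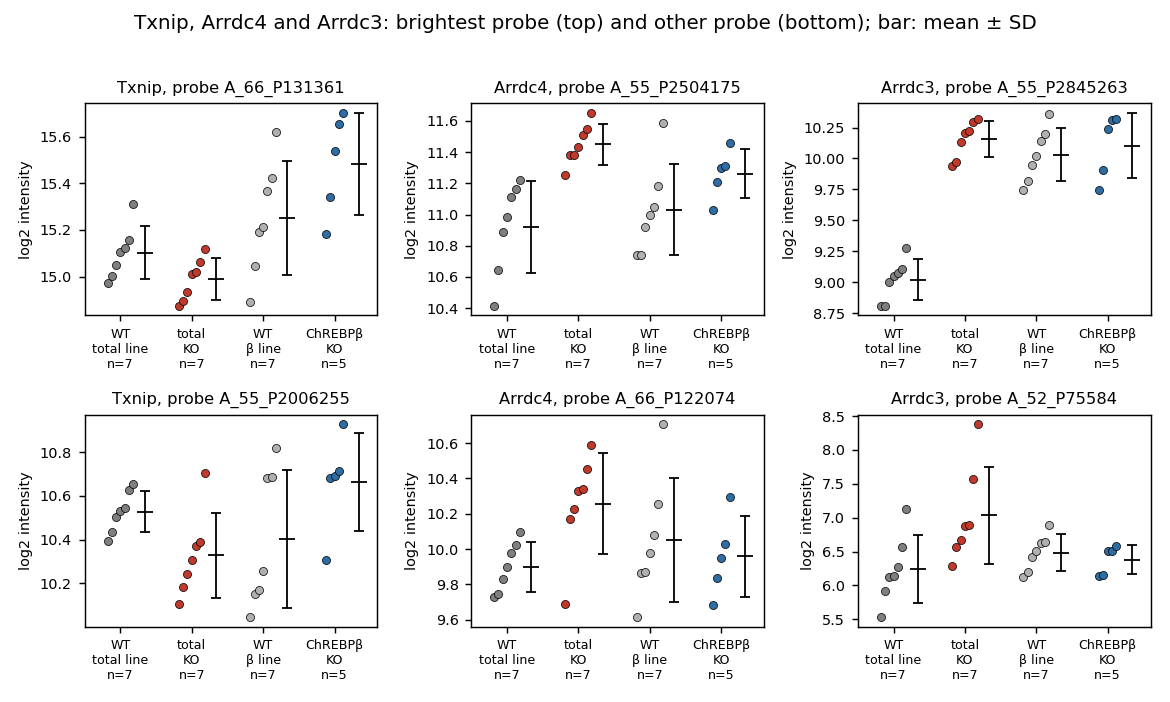
Log2 intensity of every array at both probes of Txnip, Arrdc4 and Arrdc3 in the 4 groups, with mean ± SD beside the points. The WT arrays of the total line lie below all other arrays at Arrdc3 probe A_55_P2845263 (8.81 to 9.28 against 9.74 to 10.36), and at both Txnip probes KO and WT of each line overlap.

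Loss of ChREBPβ alone was then read over all members. Mlxipl was the 1 of 10 members that passed in ChREBPβ KO, where 0.0512% of all genes did. It was also the only one with a gap between KO and WT arrays, against 0.366% of all genes. Before adjustment, the 95% confidence intervals of Mlx, Txnip and Mxd4 left out 0 as well. The other 9 members had differences between -0.33 (Mlx) and 0.23 (Txnip) at their brightest probes, with a median of 0.07. Over all 25407 genes the median was 0.00. Mxd4 was nearest to the threshold among them, with 10.98, 11.13 and 11.16 in WT mice and 11.22, 11.38, 11.28, 11.10 and 11.29 in KO. The difference was 0.16 (95% confidence interval 0.04 to 0.27, adjusted p = 0.424 in limma). Arrdc3 had 9.90, 10.24, 9.74, 10.31 and 10.32 in KO and 9.74 to 10.36 in WT mice, a difference of 0.07 (95% confidence interval -0.16 to 0.31). For Max the difference was 0.09 (95% confidence interval -0.06 to 0.24).

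The effects of both deletions were set against each other in the same model, as the ChREBPβ effect minus the total effect. Of 10 members 4 passed, against 23.2% of all genes. The difference was positive for Mlxipl (0.77), which fell less in the ChREBPβ line, and for Max (0.53, SE 0.10, adjusted p = 0.000488 in limma), which fell in total ChREBP KO and did not pass in ChREBPβ KO. It was negative for Arrdc3 (-1.07, SE 0.15, adjusted p = 2.64e-05) and Mxd4 (-0.41, SE 0.07, adjusted p = 0.000364), which rose in total ChREBP KO and did not pass in ChREBPβ KO. The second Mxd4 probe also differed (-0.69, adjusted p = 0.000829), as did the dimmer Mlxip probe (0.90, adjusted p = 0.00656), whereas the brightest Mlxip probe did not pass (0.15, adjusted p = 0.368). For Arrdc4 the difference was -0.30 (95% confidence interval -0.67 to 0.07, adjusted p = 0.248), so its rise in one line was not shown to differ from the value in the other. With slide as a fixed block Arrdc3 alone passed among the members.

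WT mice of both lines bear on these differences, because a total effect is measured against one set of WT arrays and a ChREBPβ effect against the other. WT mice of the ChREBPβ line were compared with WT mice of the total line. This comparison uses the same WT arrays as both KO comparisons and is no independent evidence on them. The members that differed between the deletions differed here too. Of 10 members 5 passed (45.9% of all genes), 2 of them higher in the ChREBPβ line (26.2%) and 3 lower (19.6%). Mxd4 and Arrdc3 did not overlap, against 17% of all genes.

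Arrdc3 was 1.01 higher in WT mice of the ChREBPβ line (SE 0.10, adjusted p = 4.65e-08 in limma), nearly the size of its rise in total ChREBP KO. Its 7 WT arrays of the total line lay at 8.81 to 9.28, and the other 19 arrays, KO or WT, at 9.74 to 10.36. Mxd4 had the same layout, with 10.77 to 10.93 in WT mice of the total line and 10.98 to 11.50 on all other arrays. It was 0.27 higher in WT mice of the ChREBPβ line (SE 0.05, adjusted p = 0.000110) and 0.48 at the second probe (adjusted p = 0.000140). For both genes the group means ran from total ChREBP KO over ChREBPβ KO and WT of the ChREBPβ line down to WT of the total line, and only the last step was free of overlap. Max was 0.20 lower in WT mice of the ChREBPβ line (SE 0.07, adjusted p = 0.0176), Mlxipl 0.39 lower (SE 0.12, adjusted p = 0.00956) and Mxd1 0.56 lower (SE 0.14, adjusted p = 0.00157). For Mlxipl the order was WT of the total line, WT of the ChREBPβ line, ChREBPβ KO and total ChREBP KO, with a gap only between WT and KO. For the remaining 7 members every pair of neighbours in the order overlapped. Txnip (0.15, adjusted p = 0.200) and Arrdc4 (0.11, adjusted p = 0.482) did not pass between the WT groups.

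Several marker lists followed the same split of the WT groups. In WT mice of the ChREBPβ line 15 of 15 lymphocyte markers and 5 of 5 red blood cell markers were called lower, 9 of 13 adipocyte markers and 8 of 12 macrophage markers were called higher, and of 8 beige and brown adipocyte markers 7 were lower and 1 was higher. Over all genes, 26.2% were called higher and 19.6% lower in WT mice of the ChREBPβ line. Adipocyte markers had the layout of Arrdc3 and Mxd4, with 14.91 to 15.41 in WT mice of the total line and 15.45 to 15.91 on all other arrays. Lymphocyte, adipocyte and beige and brown marker levels did not overlap between the WT groups, so none of them can be told apart from the line among WT mice. The part of the adipocyte, beige, macrophage and red blood cell levels in the results was not tested, since only lymphocyte and muscle levels served as covariates. Of the WT-to-WT differences, that of Arrdc3 (0.88, adjusted p = 0.0382) passed with those covariates, and those of Mxd4 (0.24, adjusted p = 0.221), Mlxipl (-0.70, adjusted p = 0.115), Max (-0.14, adjusted p = 0.612) and Mxd1 (0.19, adjusted p = 0.696) did not. Within the total line, KO arrays ranged from 8.05 to 11.42 in lymphocyte level and from 9.94 to 10.32 in Arrdc3, and WT arrays from 11.08 to 12.79 and from 8.81 to 9.28.

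**Figure D5:**
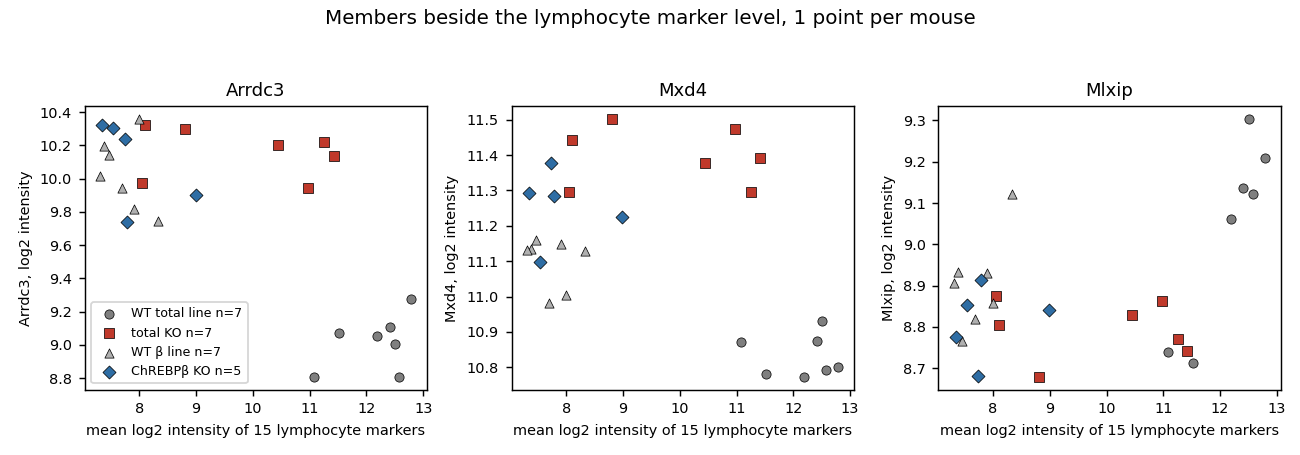
Log2 intensity of Arrdc3, Mxd4 and Mlxip at their brightest probes on every array, against the mean log2 intensity of 15 lymphocyte markers on the same array. Total ChREBP KO arrays span 8.05 to 11.42 on the horizontal axis with Arrdc3 at 9.94 to 10.32, and WT arrays of the total line span 11.08 to 12.79 with Arrdc3 at 8.81 to 9.28.

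Genes that act with the members were read from lists, at the brightest probe of each gene. Of 6 other genes of the Max and Mlx network, 1 rose and 4 fell in total ChREBP KO, where 25.8% of all genes were called higher and 20.1% lower. Mycn, a Myc paralog, rose by 0.87 (SE 0.18, adjusted p = 0.000430 in limma). Myc itself changed by -0.75 (SE 0.19, adjusted p = 0.00175 in limma), the repressors Mxd3 and Mxi1 by -0.63 and -0.33, and Mga, a large Max partner, by -0.20. Mga was well above background on only 3 of 7 total ChREBP KO arrays and 6 of 7 WT arrays of that line. For Mxd3 these counts were 5 and 7, and for Mycn 5 and 6. Mycl did not pass (0.25, adjusted p = 0.348). The median over the 6 was -0.26, and 0 of 6 passed in ChREBPβ KO, where the median was -0.02.

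Among 10 tested alpha-arrestin and thioredoxin genes, Txnrd3, a thioredoxin reductase of testis and some other tissues, rose by 0.71 (SE 0.11, adjusted p = 1.11e-05). The arrestin Arrdc1 changed by -0.85 (SE 0.18, adjusted p = 0.000333 in limma), and the cytosolic and mitochondrial reductases Txnrd1 and Txnrd2 by -0.19 and -0.51. Arrdc1 was well above background on 5 of 7 total ChREBP KO arrays and 7 of 7 WT arrays of that line. Thioredoxin itself, the binding partner of Txnip, did not pass as Txn1 (0.00) or Txn2 (0.07). Nor did the arrestin Arrdc2 (0.05) or the ubiquitin ligases that bind arrestins, Itch (0.02), Nedd4 (0.33, adjusted p = 0.0506) and Nedd4l (-0.21). The list's median was 0.01 with 4 of 10 called, against 45.8% of all genes, and 0 of 10 passed in ChREBPβ KO. Arrdc5 was not tested because it did not pass the filter on dim probes.

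The targets stood apart in size. Of 24 tested glucose-responsive ChREBP targets 19 fell and 0 rose in total ChREBP KO (20.1% of all genes fell), with a median of -1.38, whereas the shared targets Txnip and Arrdc4 gave -0.11 and 0.53. Slc2a5, the fructose transporter, changed by -9.01, but was well above background on only 2 of 7 KO arrays. Fgf21, a hormone of sugar intake, changed by -3.43 (SE 0.28, adjusted p = 5.84e-10) and Elovl6, a fatty acid elongase, by -3.30 (SE 0.14, adjusted p = 7.28e-15). Fgf21 was well above background on 7 of 7 total ChREBP KO arrays but only 5 of 7 WT arrays of the total line. In ChREBPβ KO 0 of 24 passed, with a median of -0.21. Pklr was not tested. Among genes of hexose entry and phosphorylation, which make the signal for ChREBP and MondoA, 4 of 8 fell in total ChREBP KO and 0 rose. Over all genes 20.1% fell there and 45.8% were called in either direction. Hexokinase 2, Hk2, changed by -1.88 (SE 0.11, adjusted p = 1.52e-12), Gpi1 by -1.07, the insulin-responsive glucose transporter Slc2a4 by -0.87 and Hk1 by -0.23. Hk2 was also lower in ChREBPβ KO (-0.78, adjusted p = 0.00859), the only gene of these lists to pass there. Slc2a1 (0.10), Slc2a2 (0.00) and Hk3 (-0.66) did not pass in total ChREBP KO. Of 15 genes that govern where ChREBP and MondoA reside, 5 rose and 2 fell, close to the 45.8% of all genes called there. The largest changes were 0.72 for the 14-3-3 protein Ywhab, 0.71 for the protein kinase A subunit Prkaca, 0.45 for the AMPK subunit Prkaa1 and -0.48 for its counterpart Prkaa2, with -0.21 for Ywhaz, and 0 of 15 passed in ChREBPβ KO.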

How the data were processed

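Cy3-labelled RNA of 26 inguinal fat samples was hybridised to 1-colour Agilent mouse arrays, which the authors read with Feature Extraction 10.10.1.1. The deposited scanner files hold intensity per spot (median of the pixels used here). The authors' table holds log2 intensity after a filter on dim probes, quantile normalization and the median over replicate spots. It was rebuilt from the scanner files so that each step could be varied, and the 20 member probes came out the same to within 0.007 in log2. The order of its last 2 steps followed the deposited values. A probe was tested when well above background on 21 or more of the 26 arrays, or on 75% of those of any group, and 97 outlier values were left missing. Member probes were well above background on all 26 arrays. Intensity depends on each probe's own binding, so levels were not compared between probes.

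Arrays had a median intensity of 59 to 107.5 over a background of 15 to 23, with 0 saturated spots. They correlated at 0.9533 to 0.9965, so no array repeated the values of another. Whether any arrays came from the same animal cannot be told from these correlations. The number of arrays limits the precision. Groups and wash batches came from the labels, which name no animal or litter, so p-values measure the spread between samples. Same-numbered arrays of compared groups did not deviate together (r between -0.355 and 0.508), so numbers were not used as pairs.

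One limma model (limma 3.58.1, R 4.3.3; 22 residual degrees of freedom) over all 26 arrays gave 4 comparisons, each adjusted by Benjamini-Hochberg over the 38832 tested probes and called at an adjusted p of 0.05. The script was tested on simulated data. Members and gene lists were chosen with earlier results of these data known. Named genes were all members, all genes of lists with 12 or fewer, the called genes with the 3 largest rises and falls of longer lists, and, for Mlxipl, Txnip and Arrdc4, the 5 genes of most similar deviation. One gene of these lists is not reported here. Epithelium markers (6 of 9 tested), red blood cell markers (5 of 6) and 2 reference genes had 0 calls in either KO comparison. Probe positions are those of the array files (mm9), and the exon or untranslated region they lie in was not analysed here. All 10 members matched RefSeq start sites (GRCm38.p6).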

Additional observations from a re-analysis of the deposited data

Results flagged for a closer look

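At 6 member probes the effect of ChREBPβ loss differed from that of total ChREBP loss in limma (adjusted p under 0.05 for the interaction). Written as the ChREBPβ effect minus the total effect, on the log2 scale, these differences were -1.0665 for Arrdc3 (A_55_P2845263), 0.5257 for Max (A_51_P188211), 0.9021 for Mlxip (A_66_P102574), 0.7665 for Mlxipl (A_55_P2119957), -0.6869 for Mxd4 (A_51_P148865) and -0.4076 for Mxd4 (A_52_P230650). At all 6 probes WT mice of the ChREBPβ line also differed from WT mice of the total line (adjusted p under 0.05 in limma), and the same arrays enter the interaction. That difference was 1.01 for Arrdc3, -0.20 for Max, -0.76 for Mlxip, -0.39 for Mlxipl, and 0.48 and 0.27 for the Mxd4 probes. No array stood apart from its group at any member probe, over 80 groups examined, where chance alone would mark about 1 group in 20.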

How the results depend on the processing

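Over 1290 combinations of a member's change and an alternative setting, 1257 kept their side of the threshold, 17 lost and 15 gained a call, and 1 call turned its sign, the difference of Mxd1 between WT groups, which was 0.19 with lymphocyte and muscle levels as covariates (not called there). A further 23 values changed sign that were not called in the reported fit, such as Txnip in total ChREBP KO, which was 0.06 with slide as a fixed block. Leaving out each array in turn gave 6 to 7 called members in total ChREBP KO, 1 in ChREBPβ KO, 4 to 5 for the difference of the effects and 5 to 6 between WT groups. With slide as a fixed block these counts were 5, 0, 1 and 2 in that order, a fit that compares total ChREBP KO and WT only through other groups, since no slide held both. There Mlxipl changed by -1.54 in ChREBPβ KO (adjusted p = 0.27). With lymphocyte and muscle levels as covariates 4 members were called in total ChREBP KO and 2 between WT groups. The fit with the replicate block kept all 40 member results, with 6, 1, 4 and 5 calls. Max lost its call between WT groups under both scalings to the 75th percentile (-0.11 in each). Without the 10 arrays of high muscle marker level, chosen after seeing the data, the counts were 6, 1, 3 and 4, with 3 to 5 arrays left in each group. Over all genes, the calls ranged from 3631 to 13069 in total ChREBP KO (11644 in the fit reported), from 0 to 75 in ChREBPβ KO (13), with 2 without KO replicate 6 and 75 without KO replicate 4, from 411 to 7530 for the difference (5883) and from 926 to 12750 between WT groups (11650). The lowest of these counts came from the slide block or the covariates, and the cause was not tested.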

Other observations

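Likeness to 3 members was read from deviations from the 4 group means over all 26 arrays, among 17303 genes, as a description without a test. The arrays share wash batches and differ in the mixture of cells. The genes nearest to Mlxipl were Slc46a1 (Pearson's r = 0.864), Mrpl11 (0.854), Pfkl (0.836), Slc35e4 (0.835) and Mrps7 (0.831). Their log2 fold changes in total ChREBP KO were, in that order, 0.61, 0.26, -1.44, -0.48 and 0.15. Pfkl, at -1.44, is a glycolytic phosphofructokinase. The nearest to Txnip were Phf13 (0.697), Vsig4 (0.679), Rgs21 (0.662), Ostc (0.646) and Klf10 (0.644), the last a known ChREBP target. In total ChREBP KO these genes changed by 0.17, 0.17, 0.05, 0.19 and -0.93, in that order. For Arrdc4 they were Adamts9 (0.857), Sybu (0.83), Nup43 (0.828), Cdc73 (0.827) and Msantd3 (0.824). Txnip and Arrdc4 deviated with little relation to each other (0.075). Among the members, the pairs furthest from 0 were Mlx with Mxd1 (-0.734) and Mlx with Arrdc3 (-0.513).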
